A study of Mus musculus with 29 samples.

Results

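The comparison set fluoxetine or lithium, pooled, against vehicle in mice with 1 K228E allele of Tbr1 (heterozygotes, HT). It contrasted 21 of the 29 RNA sequencing libraries of the series, 15 from HT mice given either drug and 6 from HT mice given vehicle. The fit held all 29, and the 8 not contrasted entered only the estimate of the spread and the sex term. The members were chosen by treatment alone, and the difference was the mean of the fluoxetine and lithium arms minus the vehicle arm, so that each drug had equal weight, with sex as a covariate. All libraries came from prefrontal cortex of C57BL/6J mice at postnatal day 40, and HT or WT in the sample titles gave the genotype, so that the HT vehicle controls carry the allele too. The fluoxetine arm had 8 libraries (4 female, 4 male), the lithium arm 7 (3 female, 4 male) and the HT vehicle arm 6 (3 female, 3 male). The other 8 libraries (4 female, 4 male) came from wild-type (WT) mice given vehicle, so no drug was given without the allele. Dose, route and duration of either drug are not in the labels, which also do not state whether replicates were separate mice, so p-values measure the spread between these libraries.

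The protein made from Tbr1 is a T-box factor that regulates transcription in glutamatergic projection neurons, with high expression in deep cortical layers, and variants of it are linked to autism. Fluoxetine blocks the serotonin transporter. Lithium inhibits inositol monophosphatase and glycogen synthase kinase 3, and both drugs are prescribed for mood disorders. The question of the comparison is which transcripts differ from vehicle with both drugs.

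Recovered reads summed to between 25.52 and 31.35 M in the fluoxetine libraries, 26.03 to 30.46 M in lithium, 23.35 to 29.14 M in HT vehicle and 22.81 to 31.71 M in WT. The 15 drug libraries averaged 28.2 ± 1.69 M reads (SD) and the 6 HT vehicle libraries 25.7 ± 2 M (two-sided exact permutation test, p = 0.0104, adjusted over 2 library measures 0.0209). Values below are normalised counts, the authors' read counts divided by 1 size factor per library. The 19 measured markers of upper layer neurons were above 0 in every library. Only 52 to 110 of 18240 genes were at 0 in a library, so this cannot verify the prefrontal dissection. Markers of neighbouring tissue varied between libraries more than those of any other of the 39 lists. The mean of 24 striatal markers (log2, centred per gene) ran from -0.65 to -0.12 in HT vehicle, from -0.61 to 1.76 in fluoxetine, from -0.52 to 0.94 in lithium and from -0.61 to 1.16 in WT. Their summed normalised count ran from 22109 to 26338 in HT vehicle and from 21588 to 46425 in the drug libraries, and no member was at 0 in all libraries of a group. For 27 olfactory-area markers the mean ran from -0.53 to 0.95 in HT vehicle, from -1.04 to 1.35 in fluoxetine and from -1.999 to 0.67 in lithium, and their sum from 51607 to 69854 in HT vehicle and from 46918 to 79866 in the drug libraries. A library was called high when 1 of these means exceeded the median over the 29 libraries by more than 1. This held for 4 fluoxetine libraries (female 1 for olfactory markers, female 2 and males 1 and 2 for striatal markers), 1 lithium library (female 2), no HT vehicle library and 3 WT libraries. Their part in the results was not tested beyond the values given with and without them.

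**Figure D1:**
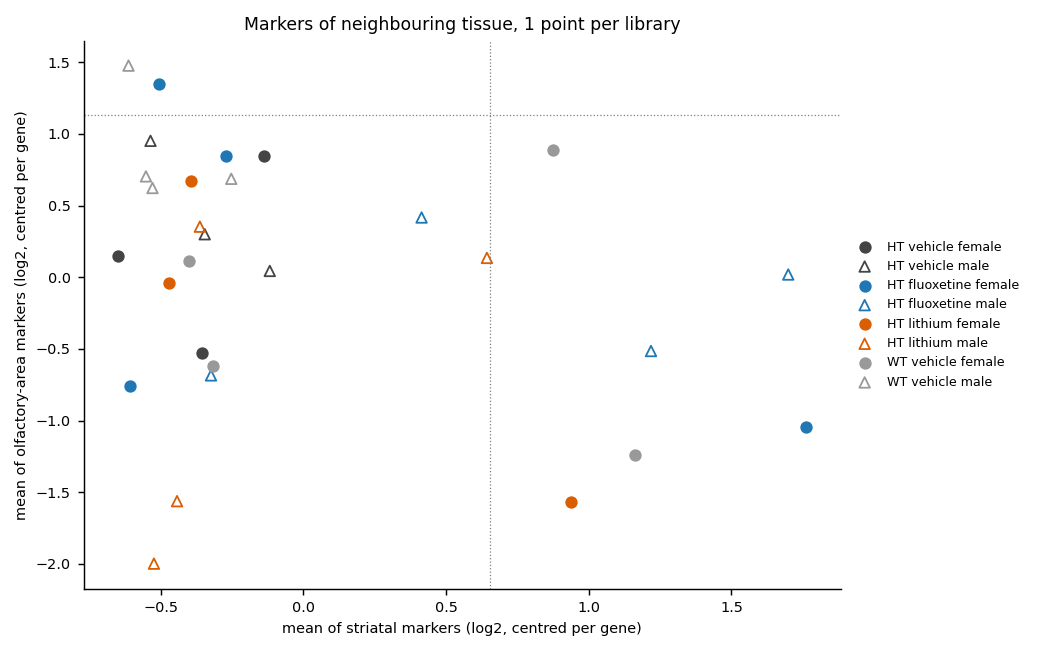
Mean of striatal markers (x axis) against mean of olfactory-area markers (y axis), both log2 and centred per gene, 1 point per library, with dotted lines 1 above the median of all libraries. The 6 HT vehicle libraries lie between -0.65 and -0.12 on the x axis, while fluoxetine libraries reach 1.76.

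Tbr1 itself was measured first. Its normalised count was 3728 at the lowest, 3919 at the median and 4593 at the highest of 6 HT vehicle libraries, and 2858, 4422 and 4766 in the 15 drug libraries. The groups overlapped, and the log2 difference was 0.07 ± 0.09 (SE; limma, adjusted p = 0.787). In WT vehicle the values were 2151, 3035 and 3432, below every HT vehicle library. The HT vehicle minus WT difference of Tbr1 was 0.52 ± 0.10 (limma, adjusted p = 0.0251). The lowest of the HT libraries, fluoxetine female 1, was the library with the highest olfactory markers of the HT arms.

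No gene changed between either drug and vehicle at an adjusted p of 0.05 with limma. Of 17881 genes tested with limma, 0 were called (0%), and the smallest adjusted p was 0.0938. At an unadjusted p under 0.05, 1917 genes (10.7%) were counted, 1019 higher and 898 lower, where 894 correspond to the threshold itself. edgeR's quasi-likelihood test on the recovered reads called 0 genes (1870 had an unadjusted p under 0.05), and DESeq2 on the same reads called 38 (25 higher, 13 lower). Leaving out 1 library at a time gave 0 calls for every library other than HT fluoxetine female 1, without which limma called 48. With a weight estimated for each library, in which that library had the lowest weight (0.332), limma called 104 genes (72 higher, 32 lower). The median log2 difference over all genes was -0.0044, with a median SE of 0.066, and the middle 90% of genes, from the 5th to the 95th percentile, spanned -0.26 to 0.20.

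The genes described next are the 8 per direction with the smallest p among those with an assigned name and a mean normalised count of at least 50. None passed with limma or edgeR (12 of them did with DESeq2), and their limma adjusted p ran from 0.0938 to 0.191 for the higher and from 0.0938 to 0.231 for the lower ones. Their differences were small, 1.08-fold to 1.34-fold higher and 1.10-fold to 1.14-fold lower. For orientation, 90 bases of coding sequence within 1 exon are shown for the 2 higher and the 2 lower genes with the smallest p (GENCODE M21, GRCm38, plus strand), with G and C in capitals, because base composition returns below as a measured property of both sets. They lie in exon 2 of Slc30a9 (chr5:67315752-67315841), exon 15 of Cop1 (chr1:159319732-159319821), exon 2 of Aldh1l1 (chr6:90557228-90557317) and exon 4 of Dpysl4 (chr7:139091936-139092025), counted over all exons of the transcript.
Slc30a9: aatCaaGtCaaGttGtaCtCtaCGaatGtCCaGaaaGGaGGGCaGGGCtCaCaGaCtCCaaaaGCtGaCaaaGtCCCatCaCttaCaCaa
Cop1: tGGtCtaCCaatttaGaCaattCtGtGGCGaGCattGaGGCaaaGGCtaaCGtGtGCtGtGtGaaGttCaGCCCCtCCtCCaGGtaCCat
Aldh1l1: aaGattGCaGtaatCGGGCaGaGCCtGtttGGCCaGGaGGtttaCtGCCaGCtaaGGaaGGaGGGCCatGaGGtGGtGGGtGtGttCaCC
Dpysl4: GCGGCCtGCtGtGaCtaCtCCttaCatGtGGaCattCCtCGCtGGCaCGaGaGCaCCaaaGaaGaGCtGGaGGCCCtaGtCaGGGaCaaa
Each stretch was picked to lie close to the GC content of its whole coding sequence, which was 45.1% for Slc30a9, 47.7% for Cop1, 55.7% for Aldh1l1 and 56.5% for Dpysl4.

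Among genes with lower values, Aldh1l1 encodes the cytosolic 10-formyltetrahydrofolate dehydrogenase, a folate enzyme used as an astrocyte marker. Its normalised count was 1762, 1853 and 2067 (lowest, median, highest) in HT vehicle, 1593, 1652 and 1732 in fluoxetine, 1517, 1719 and 1798 in lithium and 1563, 1649 and 1721 in WT. All 15 drug libraries lay under the vehicle median and 13 under the lowest vehicle library. The log2 difference was -0.17 ± 0.03 (SE; limma, adjusted p = 0.0938), and it was -0.18 with fluoxetine and -0.15 with lithium. Dpysl4, of the collapsin response mediator family that acts on the cytoskeleton of growing axons, had 1914, 2064 and 2109 in HT vehicle, 1621, 1865 and 1937 in fluoxetine, 1707, 1827 and 1852 in lithium and 1716, 1849 and 1884 in WT. Again 13 of 15 drug libraries were under the lowest vehicle library, and WT lay wholly below it. The difference of Dpysl4 was -0.17 ± 0.03 (limma, adjusted p = 0.0938).

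Grin1 encodes the obligatory subunit of NMDA-type glutamate receptors. Its normalised count was 16780, 18190 and 19260 in HT vehicle, 15910, 16650 and 17010 in fluoxetine, 16130, 16410 and 17110 in lithium and 14820, 16810 and 17720 in WT. Vehicle and drug libraries overlapped through the lowest vehicle library, male 2, and 9 of 15 drug libraries lay below it. The difference of Grin1 was -0.13 ± 0.03 (limma, adjusted p = 0.205). Slc9a9, a sodium/proton exchanger of endosomes, had 732.4, 780.0 and 819.1 in HT vehicle, 627.8, 694.3 and 786.1 in fluoxetine and 619.6, 641.7 and 761.2 in lithium. Unlike the previous genes it had a WT median (787.8) close to the vehicle one, and its drug-treated HT minus WT difference was -0.18 ± 0.04 (limma, adjusted p = 0.0211). Abcc10, an ATP-dependent efflux transporter, differed by -0.19 ± 0.04 (limma, adjusted p = 0.146), with -0.11 for fluoxetine and -0.27 for lithium. The lithium minus fluoxetine difference of Abcc10 was -0.16 ± 0.04 (limma, adjusted p = 0.996). Abcc10 overlaps Dlk2 on the opposite strand, and whether counting used strand is not stated. Vars2 (mitochondrial valyl-tRNA synthetase), Fam50a (a nuclear protein) and Cad (the enzyme of the first steps of pyrimidine synthesis) had differences of -0.14, -0.17 and -0.14, with 12, 12 and 9 of 15 drug libraries under the lowest vehicle library.

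Among genes with higher values, Slc30a9 encodes a member of the zinc transporter family. Its normalised count was 3722, 3823 and 3995 in HT vehicle, 3933, 4177 and 4303 in fluoxetine, 4113, 4255 and 4313 in lithium and 3932, 4043 and 4328 in WT. Every lithium library and 6 of 8 fluoxetine libraries were above the highest vehicle library, 13 of 15 in all. The difference of Slc30a9 was 0.12 ± 0.02 (limma, adjusted p = 0.0938). Cop1, a ubiquitin ligase, had 1528, 1571 and 1648 in HT vehicle, 1576, 1761 and 1891 in fluoxetine, 1643, 1739 and 1755 in lithium and 1604, 1674 and 1812 in WT. Here too 13 of 15 drug libraries were above all vehicle libraries, and the difference was 0.14 ± 0.03 (limma, adjusted p = 0.146).

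Tpm4, an actin-binding tropomyosin, was the only one of the 16 whose drug and vehicle libraries did not overlap. Its normalised count was 689.0, 748.7 and 762.3 in HT vehicle, 789.5, 822.2 and 916.0 in fluoxetine, 763.0, 797.1 and 886.5 in lithium and 750.5, 805.1 and 916.8 in WT. The lowest drug library, lithium male 3, and the highest vehicle library, female 2, were less than 1 normalised count apart, and the difference was 0.16 ± 0.03 (limma, adjusted p = 0.146). Med7, a subunit of the Mediator complex, had 288.5, 346.1 and 361.9 in HT vehicle, 356.3, 385.4 and 423.5 in fluoxetine, 360.7, 403.6 and 422.8 in lithium and 321.0, 349.1 and 384.3 in WT. Its WT median was near the vehicle one, and 15 of 15 drug libraries were above the WT median. The difference of Med7 was 0.21 ± 0.05 against HT vehicle (limma, adjusted p = 0.146) and 0.17 ± 0.04 against WT (limma, adjusted p = 0.0383). Lipg, the endothelial lipase gene, had the widest difference of the 16, 0.42 ± 0.09 (limma, adjusted p = 0.146), with 104.6, 127.9 and 145.5 in HT vehicle and 134.2, 162.9 and 202.9 in the drug libraries. Against WT the difference of Lipg was 0.32 ± 0.08 (limma, adjusted p = 0.0481). Nus1 (a subunit of the enzyme that makes dolichol), Scoc (a Golgi coiled-coil protein) and Gdi2 (a recycling factor of Rab GTPases) had differences of 0.15, 0.17 and 0.11, with 12, 11 and 13 of 15 drug libraries above the highest vehicle library.

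**Figure D2:**
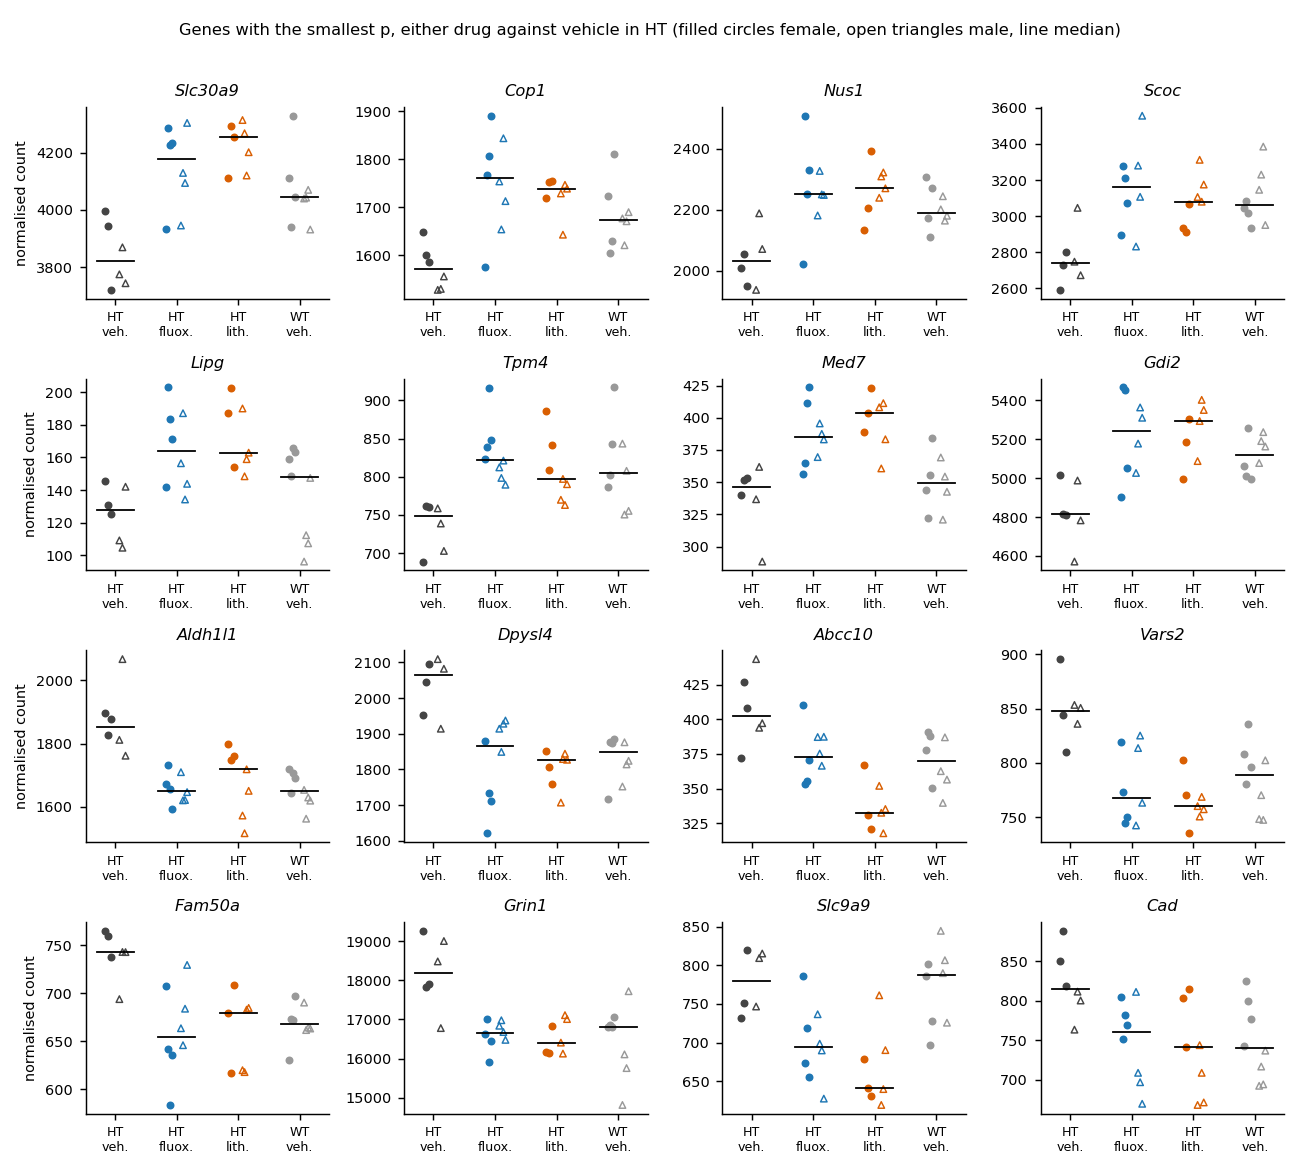
Normalised count (y axis, linear, not starting at 0) of the 16 genes in each library by arm (x axis), with filled circles for females, open triangles for males and a line at the arm median. Tpm4 values of the 15 drug libraries, from 763.0 to 916.0, all lie above the highest HT vehicle value of 762.3, while the other 15 genes overlap.

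Each of the 16 genes had the same sign with each drug and in each sex, a description of genes that the pooled difference selected. The higher genes had 0.11 to 0.38 with fluoxetine and 0.11 to 0.46 with lithium, and the lower ones -0.18 to -0.11 and -0.27 to -0.14. In females the log2 differences were 0.09 to 0.40 and -0.21 to -0.12, and in males 0.11 to 0.44 and -0.21 to -0.11. The smallest adjusted p of a female minus male difference among the 16 was 0.843 (limma). Fluoxetine, lithium and WT differences share the HT vehicle libraries, so a low or high vehicle group moves them together. For 14 of the 16 genes the drug median was nearer to the WT median than the vehicle median was, the exceptions being Slc9a9 and Med7. The 16 were picked by a difference from the same vehicle libraries, so this nearness can follow from that choice. Its share over all genes was not computed. The smallest p of all tested genes outside the naming rule was that of Prom2, a prominin of membrane protrusions with a mean normalised count of 11.7, named after its values were seen. Prom2 had 3.521, 7.03 and 8.541 in HT vehicle and 8.906, 13.08 and 19.97 in the drug libraries, a difference of 0.91 ± 0.17 (limma, adjusted p = 0.0938), and 8.422, 12.28 and 18.82 in WT.

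Of all genes tested, 4 had no overlap between the 15 drug and the 6 vehicle libraries (0.0224%). Cebpz (a CCAAT-binding protein), Prom2 and Tpm4 lay above vehicle (0.0168%) and Setd4 (a SET-domain methyltransferase) below it (0.00559%). Leaving out libraries can only keep or raise this count, so a rise shows nothing by itself. Without the 8 libraries high in striatal or olfactory markers, of which 3 are WT and not among those compared, the count was 31 of 17881. It was 21 without HT vehicle male 2, 13 without HT fluoxetine female 1, 10 without HT vehicle female 2 and 9 without HT vehicle female 3. DESeq2's 38 calls held 12 of the 16 genes, all but Lipg, Med7, Abcc10 and Fam50a. Their folds were 1.07 to 1.34 for the 25 higher and 1.09 to 1.14 for the 13 lower genes. Besides those named, the higher calls included Dnaja1, Hspa13, Pdia3 and Ptges3, whose proteins act in protein folding, and Picalm, an adaptor of clathrin coats. Amd1, Cd200, Igsf11, mt-Nd6 and Ppp1r2 were also among them. The lower ones included Polr2a, the large subunit of RNA polymerase II, Ercc2, a DNA repair helicase, and Agrn, an extracellular matrix proteoglycan. These are examples picked from the 38 calls, and no share of their functions over all genes was computed. All 38 had a limma adjusted p above 0.05.

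The drug differences ran with base composition. Genes at an unadjusted p under 0.05 had a median transcript GC content of 44.5% when higher and 54.3% when lower, against 49.7% for all genes tested. The 25 higher DESeq2 calls had a median of 41.9% and the 13 lower calls 58.0%. Over 10 bins of equal size by GC content, the median log2 difference went from 0.0413 in the lowest to -0.0358 in the highest bin. In females it went from 0.0663 to -0.0669 and in males from 0.0129 to -0.0065. The slope of each library's values on GC content (log2 per 10 percentage points) was -0.0302 at the lowest, 0.0524 at the median and 0.0748 at the highest of the HT vehicle libraries, and -0.0765, -0.0104 and 0.084 in the drug libraries. The groups overlapped, with means of 0.0369 and -0.00333 (two-sided exact permutation test, p = 0.0726, adjusted 0.0726). Female HT vehicle libraries averaged 0.0599 against -0.0103 in drug-treated females, and males 0.0138 against 0.00274. These pooled means join unlike arms. Fluoxetine averaged -0.046 in females and 0.0332 in males, and lithium 0.0373 in females and -0.0278 in males. Fluoxetine males thus lay above vehicle males on average, while the other drug groups lay below the vehicle group of their sex. With the slope as a covariate, chosen after seeing the data, the bin medians lay between -0.0073 and 0.0007. The slope was computed from the same values, so flat bin medians were largely built in and show nothing by themselves. With this covariate limma called 0 genes and DESeq2 called 102 (52 higher, 50 lower). The part of base composition in single genes was not tested otherwise.

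**Figure D3:**
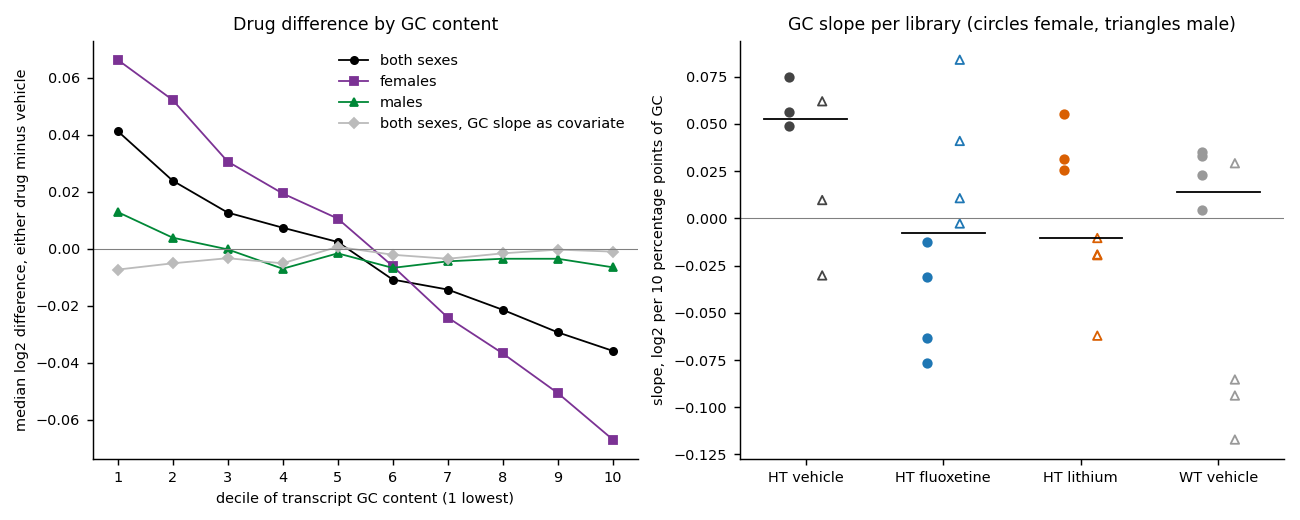
Left, median log2 difference of either drug minus vehicle (y axis) in 10 bins of transcript GC content (x axis), for both sexes, females, males and with the GC slope as a covariate. The slope was computed from the same values, so a flat line with the covariate was largely built in. Right, GC slope of each library (y axis, log2 per 10 percentage points) by arm, with circles for females, triangles for males and a line at the median; the HT vehicle median is 0.0524 and the arms overlap.

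Gene lists were read against all tested genes, of which 48% had a difference above 0, 5.7% were higher and 5.02% lower at an unadjusted p under 0.05. No member of any of the 39 lists passed an adjusted p of 0.05 with limma; the DESeq2 calls held some, among them Dnaja1, Pdia3, Grin1 and Aldh1l1. In bulk tissue, fewer cells of a type and less RNA per cell cannot be told apart. The list medians described below are log2 differences of either drug minus vehicle.

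Endoplasmic reticulum chaperones fold secreted and membrane proteins and are targets of the unfolded protein response. Of 22 members 19 had a difference above 0, with a median of 0.0877, and 12 were higher and 0 lower at an unadjusted p under 0.05. The summed normalised count of the list was 57150, 60716 and 64847 (lowest, median, highest) in HT vehicle, 58683, 63033 and 66762 in fluoxetine, 61480, 65227 and 68675 in lithium and 55570, 59599 and 63612 in WT. The arms overlapped. Pdia3 (a disulfide isomerase, 0.12 ± 0.03, limma adjusted p = 0.253), Canx (the lectin chaperone calnexin, 0.13 ± 0.04, 0.264), Dnajc3 (a co-chaperone, 0.13 ± 0.04, 0.268) and Xbp1 (a transcription factor of the response, 0.13 ± 0.04, 0.268) had the smallest p. Hspa5, the central chaperone BiP, had 0.12 ± 0.05 (limma, adjusted p = 0.384), with 0.0018 in females and 0.23 in males. The median of the list was 0.0222 in females and 0.1243 in males, and no member passed for the sex difference (smallest limma adjusted p 0.83). It was 0.0541 with fluoxetine and 0.1169 with lithium. The median kept its sign in all 51 other settings, from 0.0599 with read depth as a covariate to 0.1055. A kept sign was not particular to this list. Myelin and layer 6 genes, among others, kept theirs in all 51, with medians down to 0.0098 and 0.0025.

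Cytosolic heat shock chaperones had a median of 0.0605, with 16 of 21 members above 0, 5 higher and 1 lower at an unadjusted p under 0.05. Dnaja1, a co-chaperone of Hsp70, had the smallest p (0.12 ± 0.03, limma adjusted p = 0.231), followed by Hsp90aa1, the inducible Hsp90 (0.09 ± 0.03, 0.286), and Hspd1, the mitochondrial chaperonin (0.10 ± 0.04, 0.319). Of the 5 higher members, Hspd1 and its partner Hspe1 encode mitochondrial and not cytosolic proteins. The heat-inducible Hspa1a, Hspa1b and Hspb1 had -0.07 ± 0.06, 0.01 ± 0.09 and -0.04 ± 0.10. Hsf1, the transcription factor of the heat shock response, was the lower one, at -0.09 ± 0.04 (limma, adjusted p = 0.433). The median was 0.0051 in females and 0.1133 in males. It was 0.0387 without HT vehicle male 1, 0.0363 with read depth and 0.0342 with the striatal and olfactory means as covariates. Proteasome subunits had a median of 0.0337, with 20 of 31 above 0 and 6 higher and 0 lower at an unadjusted p under 0.05. The proteasome median was 0.018 without HT vehicle male 1, 0.0124 with read depth and 0.0145 with the striatal and olfactory means as covariates.

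**Figure D4:**
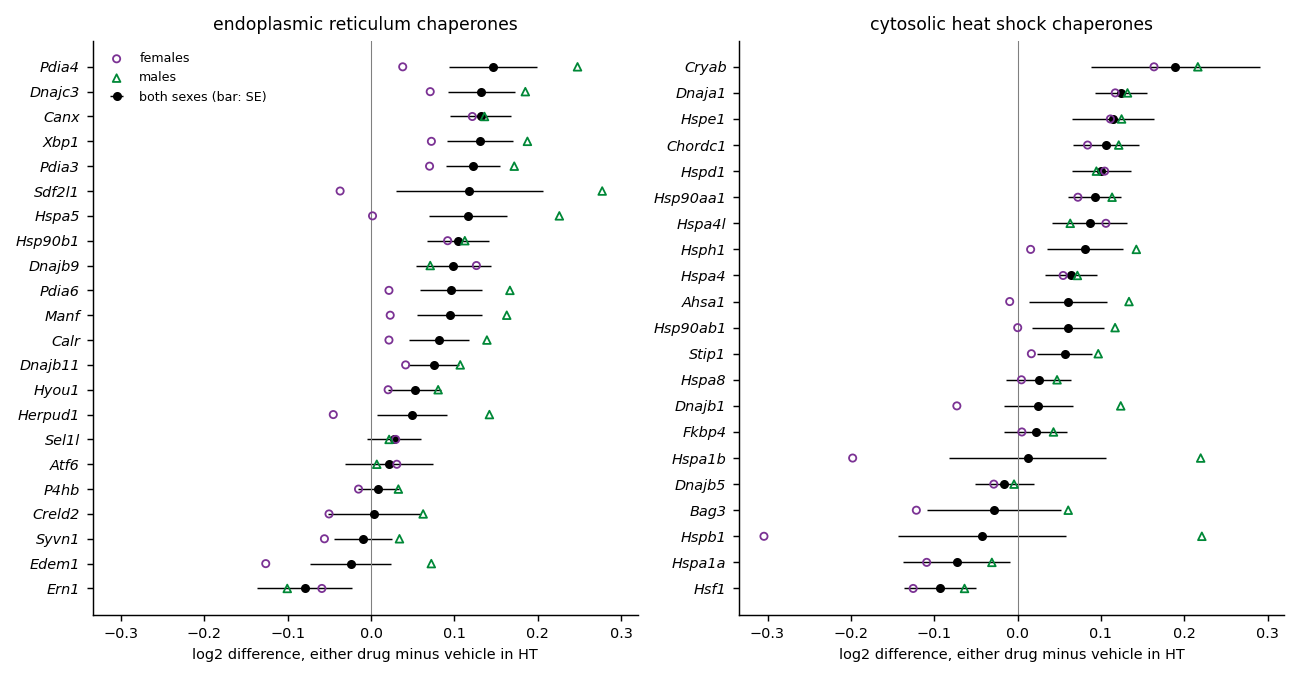
Log2 difference of either drug minus vehicle (x axis) for each member of the 2 chaperone lists, with black points and SE bars for both sexes, open circles for females and open triangles for males. In the endoplasmic reticulum list 19 of 22 black points lie above 0, and none of the members passed an adjusted p of 0.05 with limma.

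The lists of pathways each drug is known for are given with the same counts. Serotonin receptors and transport had a median of 0.0456 (12 of 16 above 0; 2 higher, 0 lower at an unadjusted p under 0.05), led by the receptor gene Htr1b at 0.36 ± 0.12 (limma, adjusted p = 0.285). Htr2c, a receptor gene, had 0.27 ± 0.13 (0.438). Inositol metabolism had a median of 0.0124 (3 higher, 1 lower of 27). In it Impa1, the inositol monophosphatase that lithium inhibits, had 0.07 ± 0.03 (limma, adjusted p = 0.434) and the inositol transporter Slc5a3 0.14 ± 0.06 (0.392). GSK3 and Wnt signalling had a median of -0.002 (1 higher, 4 lower of 31). Gsk3b, the kinase, had 0.13 ± 0.05 (limma, adjusted p = 0.362), and the Wnt co-receptor Lrp5 had -0.18 ± 0.06 (0.268). Bdnf, a neurotrophin, had 0.12 ± 0.05 (limma, adjusted p = 0.427) in a list with a median of -0.0074 (1 higher, 1 lower of 26).

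Immediate early genes, transcribed within minutes of neuronal activity, had a median of -0.0777, with 13 of 35 above 0, 3 higher and 8 lower at an unadjusted p under 0.05. The median was 0.011 in females and -0.1191 in males, -0.0227 with the striatal and olfactory means as covariates and -0.0474 without HT vehicle male 2. Fos had -0.29 ± 0.11 (limma, adjusted p = 0.359) and Nr4a1 -0.28 ± 0.11 (0.357), and in females these were 0.03 and -0.07, in males -0.57 and -0.47. Homer1, a postsynaptic scaffold, had 0.16 ± 0.05 (limma, adjusted p = 0.268). The 13 mitochondrially encoded genes had a median of 0.1288 (11 above 0, 4 higher and 0 lower), with members from -0.5908 to 0.7005. Their median was 0.0481 with the GC slope as a covariate and 0.023 with quantile normalisation. Among the 13 genes mt-Nd6, a complex I subunit encoded opposite to mt-Nd5, had 0.44 ± 0.11 (limma, adjusted p = 0.231), with 0.63 in females and 0.25 in males. Nuclear oxidative phosphorylation genes had a median of 0.0027.

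Astrocyte genes had a median of -0.0033 with 12 of 25 above 0, and 1 higher and 6 lower at an unadjusted p under 0.05. After Aldh1l1 the smallest p belonged to Aldoc, a glycolytic aldolase (-0.13 ± 0.05, limma adjusted p = 0.334), Apoe, a lipid carrier (-0.12 ± 0.05, 0.357), and Acsbg1, an acyl-CoA synthetase (-0.11 ± 0.05, 0.391). The 1 higher member was Gja1, at 0.0717 (95% interval 0.0069 to 0.1365). The members named thus do not stand for the list, whose median was near that of all genes. The summed astrocyte markers were 308821 to 323144 in HT vehicle and 296821 to 332080 with either drug, and no member was at 0.

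Several lists of cell types moved when the tissue markers were taken into account. Striatal markers had a median of 0.4814 (22 of 24 above 0) and olfactory ones -0.4633 (3 of 27 above 0), and without the 8 high libraries these were 0.0668 and -0.4295. At an unadjusted p under 0.05, 4 striatal members were higher and 0 lower, and 0 olfactory members were either. The drugs were unlike: the striatal median was 0.6402 with fluoxetine and 0.1738 with lithium, and the olfactory median -0.2509 and -0.7315. Myelin genes had a median of 0.1679 (28 of 30 above 0; 3 higher, 0 lower), which was 0.076 without the 8 libraries and 0.0098 with the striatal and olfactory means as covariates. Without HT vehicle female 3 the myelin median was 0.0704. Layer 6 and subplate genes had a median of 0.1308 (17 of 21 above 0), which was 0.0965 without the 8 libraries and 0.0046 with those covariates. Their list shares Drd1 with the striatal and Trh with the olfactory list, so the covariates partly hold its own members. Upper layer genes had -0.0165 (9 of 19 above 0), and -0.0235 with the covariates. For the endoplasmic reticulum chaperones the median was 0.0873 with the covariates and 0.1039 without the 8 libraries.

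**Figure D5:**
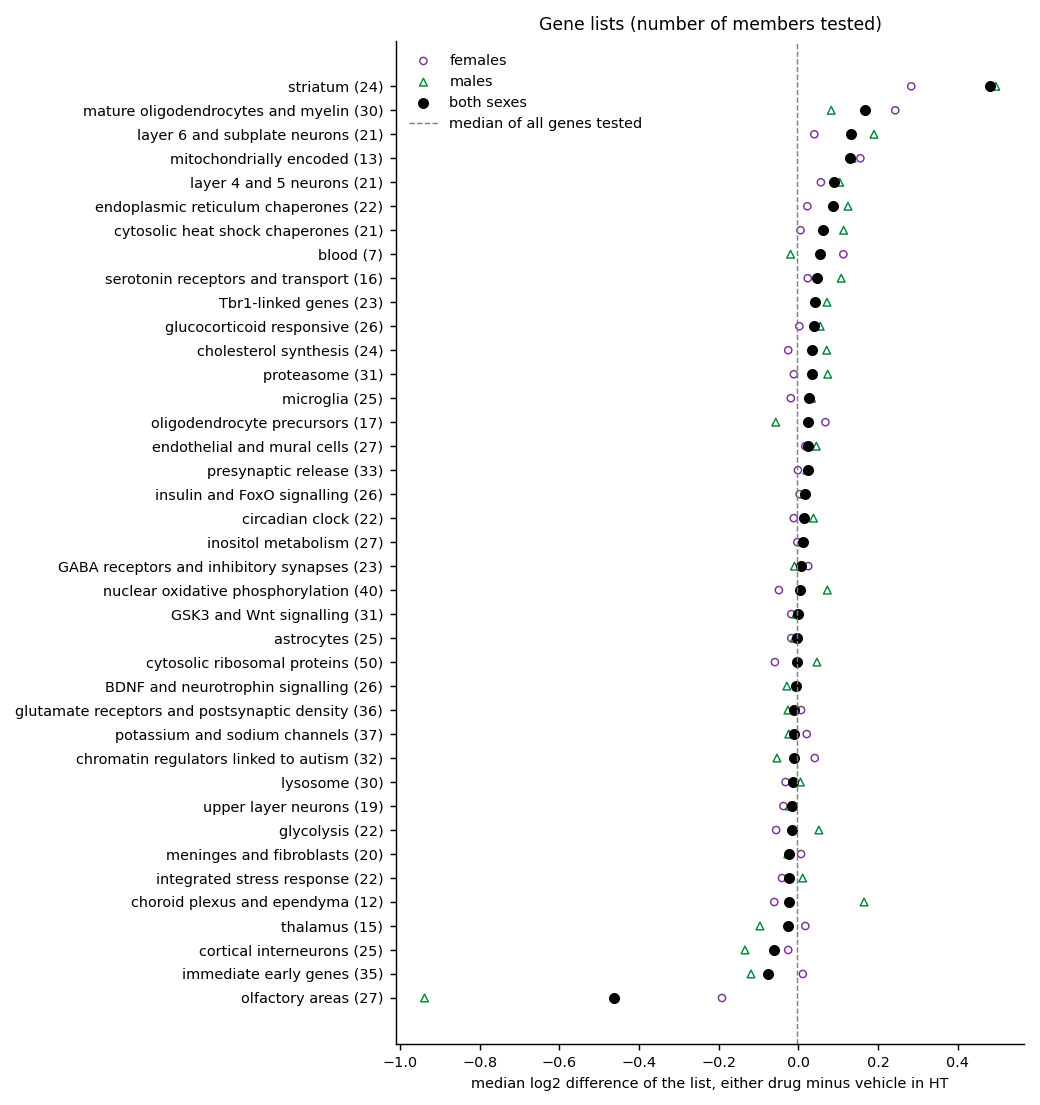
Median log2 difference of either drug minus vehicle (x axis) for each of 39 gene lists, with the number of members tested in brackets, for both sexes (black), females (circles) and males (triangles); the dashed line is the median of all genes tested, -0.0044. Striatal markers lie highest at 0.4814 and olfactory markers lowest at -0.4633.

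Each drug alone was compared with the same HT vehicle libraries. For fluoxetine limma called 0 genes (0%; 1263 at an unadjusted p under 0.05, smallest adjusted p 0.387), edgeR 0 and DESeq2 7. For lithium limma called 0 (0%; 1952, 0.0831), edgeR 0 and DESeq2 17. Lithium minus fluoxetine gave 0 with limma (0%; 582, 0.996), 0 with edgeR and 2 with DESeq2. The genes with the smallest p in that difference were Nr6a1, an orphan nuclear receptor (0.24 ± 0.06), and Zbtb16, a zinc-finger transcription factor (0.34 ± 0.09), on the side of lithium, and Mmp14, a membrane-bound matrix protease (-0.28 ± 0.07), on the side of fluoxetine, all with a limma adjusted p of 0.996.

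Within sexes limma again called 0 genes, in females (0%; 1312 at an unadjusted p under 0.05, smallest adjusted p 0.243), in males (0%; 1870, 0.141) and for the female minus male difference (0%; 1036, 0.395). edgeR called 0 in each, and DESeq2 called 0, 3 and 0. In males Nostrin, which binds endothelial nitric oxide synthase, had 0.79 ± 0.14 (limma, adjusted p = 0.141), with 0.07 in females. Pcdhga2, a gamma-protocadherin whose exons share a locus with other family members, had -0.61 ± 0.12 in males (limma, adjusted p = 0.151) and 0.11 in females. In females Dpysl4 had the smallest p among named genes (-0.20 ± 0.04, limma adjusted p = 0.406). The smallest p of the sex difference was that of Nprl2, a regulator of mTORC1 (-0.20 in females, 0.11 in males, difference -0.31 ± 0.06, limma adjusted p = 0.395).

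Against WT vehicle, drug-treated HT libraries gave more calls than vehicle-treated ones. Limma called 18 genes for HT vehicle minus WT (0.101%; 16 higher, 0.0895%, and 2 lower, 0.0112%) and 262 for drug-treated HT minus WT (1.47%; 191 higher, 1.07%, and 71 lower, 0.397%). Both counts moved with single libraries. The first ran from 2 (without HT vehicle female 1 or female 3) to 80 (without HT vehicle male 2), and the second from 140 (without WT vehicle male 1) to 861 (without HT fluoxetine female 1). Without the 8 libraries high in striatal or olfactory markers they were 6 and 78. The second comparison had 15 HT libraries and the first 6, and the difference between both is the pooled drug comparison, in which limma called 0. Among the genes that rose in drug-treated HT against WT were Pfkfb3, a glycolytic regulator (0.32 ± 0.04, limma adjusted p = 8.7e-05), Sox18, an endothelial transcription factor (0.53 ± 0.07, 8.7e-05), and Necab1, a neuronal calcium-binding protein (0.31 ± 0.04, 0.00013). The genes that fell included Cebpd, a transcription factor (-0.63 ± 0.09, limma adjusted p = 0.000414), Tgfbr2, a TGF-beta receptor (-0.20 ± 0.03, 0.00241), and Jun (-0.31 ± 0.05, 0.00253). Between either drug and vehicle in HT these had 0.16 ± 0.04, 0.24 ± 0.07, 0.10 ± 0.05, -0.11 ± 0.10, 0.00 ± 0.04 and -0.16 ± 0.06 in the same order, with limma adjusted p from 0.264 to 0.99. Whrn, a scaffold protein that was higher in HT vehicle than in WT (0.37 ± 0.05, limma adjusted p = 0.00147), had -0.15 ± 0.05 between either drug and vehicle (0.268), with 12 of 15 drug libraries under the lowest vehicle library and 15 of 15 above the WT median. Whrn was picked for high HT vehicle values, and the drug difference subtracts the same libraries, so a drop toward WT can follow from that choice. Pcsk4 and Plcxd2, picked by the same rule, had -0.34 and -0.02 between either drug and vehicle.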

How the data were processed

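Poly(A) RNA of prefrontal cortex was sequenced after a stranded TruSeq preparation, per the labels' protocols. The deposited table holds a signal: the authors divided each read count by a factor common to its library. This is read from the values, 100% of which were whole multiples of 1 step per library (tolerance 0.0001), so reads could be recovered. For HT fluoxetine females 1 and 2 and male 3 that step was near 1. The submitters' processing notes name Salmon 0.11.2, R 3.6.0, DESeq2 1.19.11 and GRCm38 with no role or order; strand setting and gene filter are not given in the sources used here.

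Of 18240 identifiers, 18227 matched GENCODE M21, the source of names, coordinates and GC content (longest protein-coding transcript). The 17881 genes that reached 10 in 3 or more libraries were tested on log2(value + 1), so fold changes of low genes are understated. Fits used limma (3.58.1, under R 4.3.3) and an intensity trend, over all 29 libraries, with 4 arm means and sex (24 residual degrees of freedom), or 8 group means for differences within and between sexes (21). Tests were two-sided; p-values were adjusted by Benjamini-Hochberg over the 17881 genes, and 0.05 was the threshold. Alternatives on recovered reads were edgeR 4.0.16 and DESeq2 1.42.0; permutation tests used scipy 1.17.1. Scripts were tested on simulated data. Libraries held 22.81 to 31.71 M reads, which limits the precision of genes with low counts.

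The named genes were the 8 per direction with the smallest p (assigned name, mean value of at least 50), 3 per direction for other comparisons (not all printed), and up to 4 per list. The comparison, lists and rules were chosen with earlier results of these data known. The main fit did not pair samples by replicate number, and all libraries carry the same batch label.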

Additional observations from a re-analysis of the deposited data

Results flagged for a closer look

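In 96 checks of a gene within an arm, over the 16 named genes and others described, 5 libraries stood apart from the rest of their arm by the gap to the nearest library; chance gives about 1 in 20 such groups. HT vehicle male 3 had the lowest Med7 of its arm (288.5, nearest 336.8), and without it the Med7 difference was 0.17 in place of 0.21. HT lithium male 2 had the lowest Cop1 (1643, nearest 1719). HT fluoxetine female 3 had the highest Tpm4 (916.0, nearest 848.1). HT fluoxetine female 1, the library high in olfactory markers, had the lowest Tbr1 (2858, nearest 3939). WT vehicle female 3 had the highest Slc30a9 (4328, nearest 4110).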

How the results depend on the processing

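The calls depended on the tool and on how libraries were weighted. For either drug minus vehicle (0 calls), library weights gave 104, a threshold of 0.1 gave 4, DESeq2 38 and DESeq2 with the GC slope as a covariate 102, while every other setting apart from leaving out HT fluoxetine female 1 gave 0. For fluoxetine, DESeq2 gave 7, and 1 with the GC slope. For lithium, no intensity trend, a threshold of 0.1 and a block on library-name numbers each gave 1, library weights 71, DESeq2 17, the GC slope 5 and DESeq2 with it 88. Lithium minus fluoxetine gave 2 with DESeq2 and 5 with the GC slope added. HT vehicle minus WT (18 calls) gave 32 with a filter at 50, 65 with library weights, 96 at a threshold of 0.1, 37 with 8 group means, 64 with the replicate block by title number and 53 by library-name number, 139 with DESeq2, 93 with striatal and olfactory covariates, 6 without the 8 high libraries, 7 with the GC slope, 54 with DESeq2 and the GC slope and 8 with read depth. Drug-treated HT minus WT (262 calls) gave 526 with library weights, 579 at 0.1, 399 with the library-name block, 494 with DESeq2, 78 without the 8 high libraries and 472 with DESeq2 and the GC slope. Females gave 1 without the 8 libraries and 1 with DESeq2 and the GC slope, males 3 with DESeq2 and 3 with the GC slope added, and the sex difference 1 and 3 under the settings named for females. Genes whose groups do not overlap (4) numbered 31 without the 8 libraries, a count that leaving out libraries can only keep or raise. The cause of these shifts was not tested.

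Leaving out each library in turn gave 0 to 48 calls for either drug, 0 to 0 for fluoxetine, 0 to 2 for lithium, 0 to 0 for lithium minus fluoxetine, 2 to 80 for HT vehicle minus WT (2 without HT vehicle female 1, 80 without HT vehicle male 2), 140 to 861 for drug-treated HT minus WT (140 without WT vehicle male 1, 861 without HT fluoxetine female 1), 0 to 0 in females, 0 to 1 in males (1 without WT vehicle female 4) and 0 to 0 for the sex difference, and 4 to 21 genes whose groups do not overlap (21 without HT vehicle male 2). None of the 16 genes or Prom2 changed sign in the settings that gave a value for it (48 to 51). They were picked for the smallest p of this difference and the settings refit the same values, so a kept sign shows little. Libraries with the same title number showed little shared deviation (median correlation 0.001, with 15 of 48 pairs over 0.1, against 0.007 for other pairs). For library-name numbers, which differ from title numbers in HT vehicle females, the medians were 0.028 and -0.006. Such correlations cannot exclude a pairing, and each block rests on a shared number only.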
